A study of Mus musculus with 9 samples.

Results

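The transcription factors that set the identity of dendritic cells (DCs) were read on 9 Affymetrix arrays of mouse DCs at day 10. The list holds 10 genes: Spi1, Irf4, Irf8, Id2, Ikzf1, Cebpa, Cebpb, Stat3, Tcf4 and Runx3. Members were all probe sets whose platform gene symbol is one of these, which gave 11 of 12488 probe sets on the array design of experiments 2 and 3 and 11 of 12654 on the design of experiment 1. They cover the same 9 of the 10 genes on both. No probe set used here carries the symbol Runx3, a factor with roles in myeloid and T cells, and its level was not analysed. The arrays are of wild-type B6 mice, of mice labelled CIITA-/- and of mice labelled IAb-/-, with 3 arrays a group, 1 from each of experiments 1, 2 and 3. CIITA switches on the MHC class II genes, and IAb is a name for the class II molecule whose beta chain is encoded by H2-Ab1. The labels name no agent and no age, and do not say how the DCs were obtained, whether cells or animals were pooled, or whether each array stands for a mouse of its own. The spread behind each p-value is therefore that of the arrays and may be of technical origin. The title of 1 CIITA-/- array has no experiment number, and it was given 2, the only one left in its group.

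DCs arise from bone marrow progenitors under the cytokines Flt3 ligand and GM-CSF. PU.1, the product of Spi1, opens the myeloid programme and pairs on DNA with the interferon regulatory factors IRF4 and IRF8, which favour different DC subsets. Id2 binds E proteins and keeps them off DNA, and the E protein E2-2, the product of Tcf4, drives plasmacytoid DCs. C/EBP alpha acts early in myeloid commitment, C/EBP beta in monocytes, macrophages and inflammation, STAT3 carries signals of Flt3 and of the IL-6 and IL-10 receptors, and Ikaros, the product of Ikzf1, is needed for lymphoid and some DC lineages.

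Levels are in arbitrary intensity units, and dim probe sets can read below 0. A noise limit was set so that 95% of the values below 0 are smaller in size than it, which gave 1701 for experiments 2 and 3 and 2203 for experiment 1. The designs differ, so levels of experiment 1 are not set against those of the others. As to the targeted genes, H2-Ab1 in experiments 2 and 3 read 17261 and 21348 in B6, 615 and 112 in CIITA-/-, and 16070 and 9621 in IAb-/-. In experiment 1 it read 44048, 675 and 30749. Ciita stayed under the noise limit on every array, from 398 to 1822. Its highest value of each experiment was on the CIITA-/- array, at 1822, 1601 and 1639 in experiments 1, 2 and 3. No direction was read at these levels. H2-Aa, the alpha chain gene, read -1520, -2254 and -1893 on the 3 arrays labelled CIITA-/- and 29271 to 65738 on the other 6. Both class II genes were thus under the noise limit on every array with that label, as loss of their activator calls for. The sources used do not place the H2-Ab1 probes relative to the deleted part, and the label IAb-/- was not checked. The groups are named by their labels throughout. All 9 DC markers listed (Itgax, Cst3, Flt3, Ccr7, Fscn1, Cd86, Cd74, Ccl17 and Ccl22) were above the noise limit on all arrays of experiments 2 and 3, and at least 8 of 9 in experiment 1. The spike-in control Cre read 99616 and 58224 on IAb-/- replicates 2 and 3 against 71464 to 79408 on the other 4 arrays of that design.

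The 250 bases before the annotated start were searched for sites known for members of the list, since these factors are known to act on one another's genes. Entries for 8 of the 10 genes were found in the RefSeq promoter table (build GRCm38.p6), and 11 windows were searched on both strands. The motif of STAT proteins, TTCNNNGAA, was present in 7.0% of all 32851 promoter windows and matched at -171 and -153 before the start of Irf8. The PU.1 motif GAGGAA, present in 23.3% of all windows, matched on the opposite strand at -19 before the start of Irf4. These are the members' windows that hold either motif, and they are shown for that reason, with the matches in capitals (Irf8, chr8:120736108-120736357, plus strand; Irf4, chr13:30748983-30749232, plus strand).
Irf8: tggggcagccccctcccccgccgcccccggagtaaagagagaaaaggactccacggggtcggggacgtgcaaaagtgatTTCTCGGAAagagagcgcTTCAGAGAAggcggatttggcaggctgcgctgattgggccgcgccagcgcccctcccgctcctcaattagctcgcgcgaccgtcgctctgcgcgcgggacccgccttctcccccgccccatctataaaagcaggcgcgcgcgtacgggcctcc
Irf4: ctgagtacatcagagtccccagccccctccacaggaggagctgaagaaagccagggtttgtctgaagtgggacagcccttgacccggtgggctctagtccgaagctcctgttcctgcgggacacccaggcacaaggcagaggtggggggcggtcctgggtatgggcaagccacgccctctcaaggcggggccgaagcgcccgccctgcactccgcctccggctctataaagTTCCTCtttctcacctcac
The C/EBP motif TTGCNNAA (9.6% of all windows) was in none of the 11, which says only that these letters are not there. E-boxes, CANNTG, the sites of E proteins, were in the windows of Runx3, Irf8, Stat3 and Id2 and in 66.2% of all windows. A match is a description of letters and not a binding site measured here.

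Of the 9 genes measured, 7 were above the noise limit on all 9 arrays, through 8 probe sets in each design: Spi1, Irf4, Irf8, Id2, Cebpa, Cebpb and Stat3. Ikzf1 and Tcf4, with 3 probe sets in each design, were under it on every array. The plot of intensities by experiment shows the level of each gene on each array.

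**Figure D1:**
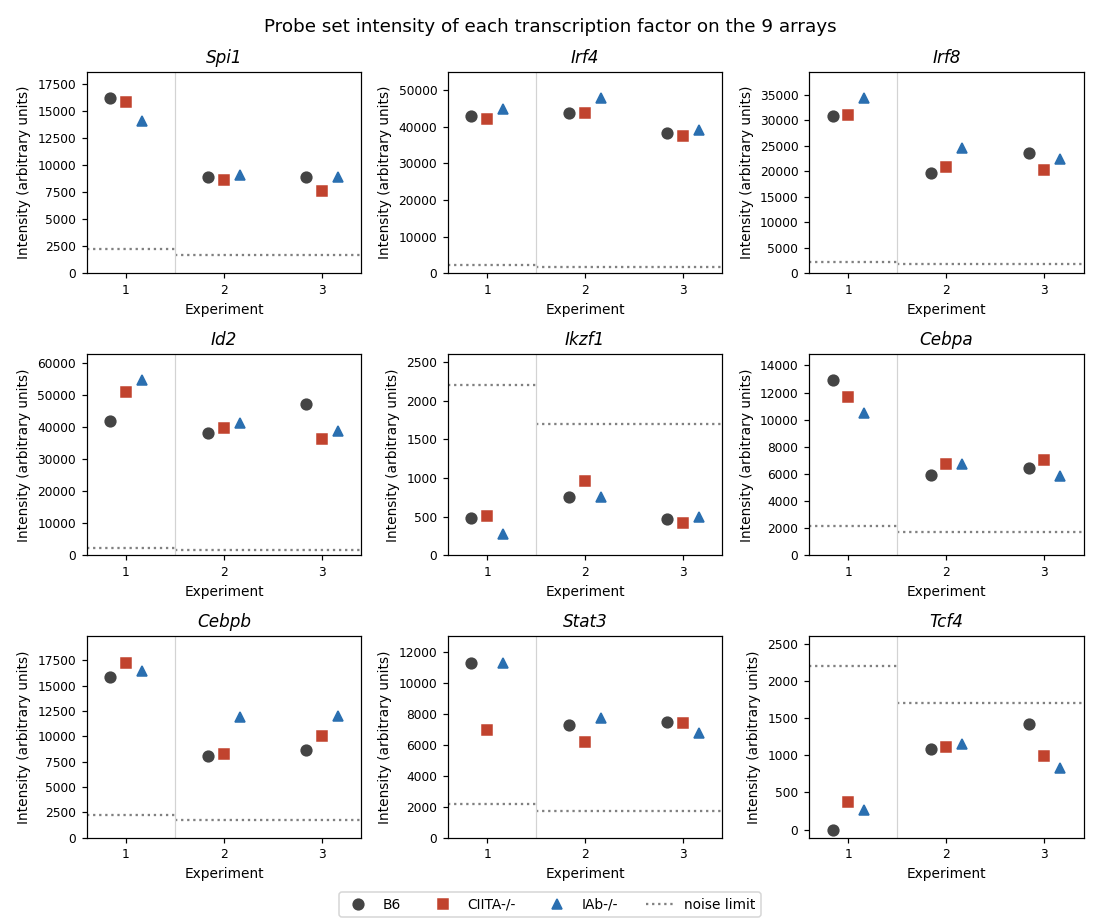
Intensity in arbitrary units (linear y axis) of 1 probe set per gene on the 9 arrays by experiment, with circles for B6, squares for CIITA-/- and triangles for IAb-/-; the dotted line is the noise limit and the vertical line parts the 2 array designs. For Tcf4 the designs carry different probe sets. Ikzf1 and Tcf4 lie under the noise limit on every array, and Cebpb is at 11905 and 11949 on the IAb-/- arrays of experiments 2 and 3, above the other 4 arrays of that design.

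No member differed between groups past the test. One limma model covered all 9312 probe sets above a low floor in experiments 2 and 3 (n = 2 arrays per group), with an adjusted p (Benjamini-Hochberg) under 0.05 taken as a call. Of the 11 member probe sets, all of which were tested, 0 were called in CIITA-/- against B6, where 0.0966% of all probe sets were called (9 of 9312). In IAb-/- against B6, 0 were called, against 0.0107% of all (1 of 9312), and in CIITA-/- against IAb-/- 0, against 0.0215% (2 of 9312). With the experiment number as a replicate block the counts over all probe sets were 0, 0 and 0, with 606, 491 and 492 at an unadjusted p under 0.05 (limma). At an unadjusted p under 0.05 (limma) the members had 0, 1 and 0 probe sets in the 3 comparisons, where 5.86%, 4.31% and 4.54% of all probe sets had one. With so few called at all, a count of 0 among 11 is near the background and does not show that the groups are alike. The intervals given for each gene are from the fit without the block, in which a shift between experiments counts as spread. They show what sizes that fit leaves possible. The 2 comparisons with B6 share the B6 arrays.

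Among the factors that open the myeloid programme, Spi1 was close to level over the groups. In experiments 2 and 3 it read 8901 and 8846 in B6, 8617 and 7629 in CIITA-/-, and 9064 and 8913 in IAb-/-. The groups did not overlap in any of the 3 comparisons, by small distances: B6 lay between the others, with CIITA-/- below it and IAb-/- above. Of the probe sets above the noise limit on all 6 arrays, 18.2% had CIITA-/- below B6 without overlap. IAb-/- lay above B6 for 17.1% of them, and CIITA-/- below IAb-/- for 11.9%. The difference of Spi1 in CIITA-/- from B6 was 0.91-fold (log2 -0.13, SE 0.14, 95% interval 0.71 to 1.18-fold, limma adjusted p = 0.93). That of IAb-/- from B6 was 1.01-fold (95% interval 0.78 to 1.31-fold, limma adjusted p = 1), and its log2 value turned to -0.009 with median scaling. In experiment 1 Spi1 read 16181 in B6, 15830 in CIITA-/- and 14090 in IAb-/-, so CIITA-/- was again below B6 but IAb-/- was the lowest there. The lowest and highest of the 6 arrays of experiments 2 and 3 were 1.19-fold apart, a narrower range than the median of 1.31-fold over the 3692 probe sets above the noise limit on all 6.

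Cebpa, which acts with PU.1 early in the lineage, did not keep 1 order of groups over the experiments. It read 5904 and 6420 in B6, 6738 and 7006 in CIITA-/- and 6745 and 5858 in IAb-/- in experiments 2 and 3. Both CIITA-/- arrays were above both B6 arrays there, as in 23.2% of the probe sets above the noise limit on all 6 arrays, and the IAb-/- arrays spanned the B6 values. In experiment 1 the order turned, with 12902 in B6, 11677 in CIITA-/- and 10482 in IAb-/-. The fitted difference of CIITA-/- from B6 was 1.12-fold (95% interval 0.85 to 1.47-fold, limma adjusted p = 0.93), and that of IAb-/- from B6 1.02-fold (0.78 to 1.34-fold).

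The interferon regulatory factors of the DC subsets were far above the noise limit in every group. Irf4, the factor of type 2 conventional DCs, read 43740 and 38177 in B6, 43759 and 37485 in CIITA-/- and 47839 and 39040 in IAb-/-. Within an experiment CIITA-/- and B6 were within 1.9% of each other in all 3 cases, the last being experiment 1 with 42144 against 42977. The spread of Irf4 lay between experiments rather than groups, all 3 arrays of experiment 2 being above all 3 of experiment 3. The IAb-/- array was the highest of its experiment each time, by 9.4%, 2.3% and, in experiment 1 (44921), 4.5% over B6. The fitted folds against B6 were 0.99 (95% interval 0.70 to 1.39) for CIITA-/- and 1.06 (0.75 to 1.49) for IAb-/-, with limma adjusted p = 1 in both. A higher value in all 3 experiments in IAb-/- against B6 was found for 2 of the 8 member probe sets, Irf4 and Cebpb, and for 13.8% of the 2876 probe sets above the noise limit on all 9 arrays.

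Irf8, the factor of type 1 conventional DCs, read 19572 and 23490 in B6, 20736 and 20260 in CIITA-/- and 24480 and 22317 in IAb-/-. The B6 arrays spanned both CIITA-/- values. Both IAb-/- arrays were above both CIITA-/- arrays, as in 11.9% of the probe sets above the noise limit on all 6 arrays. In experiment 1 the levels were 30821, 30894 and 34293 in the same order of groups. CIITA-/- was thus lower than IAb-/- in all 3 experiments, by differences of -15.3% in experiment 2, -9.2% in experiment 3 and -9.9% in experiment 1, as were Irf4 and Id2. That makes 3 of 8 member probe sets, against 14.1% of those above the noise limit on all 9 arrays. The fitted fold of CIITA-/- against IAb-/- was 0.88 (log2 -0.19, SE 0.16, 95% interval 0.65 to 1.18, limma adjusted p = 1). The Cre spike-in was also higher in IAb-/- than in CIITA-/- in experiments 1 and 2 (61809 against 52979, and 99616 against 79408) but lower in experiment 3 (58224 against 78317). The BioB spike-in, by its probe set BioB-M, was lower in IAb-/- in experiment 1 (7564 against 11112). It was higher in experiment 2 (12200 against 9140) and lower in experiment 3 (5822 against 8846). The part of either spike-in in these differences was not tested.

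The probe set of Id2, the inhibitor of E proteins, was bright in every group and that of the E protein gene Tcf4 was not. Intensities of different probe sets are not compared here as RNA levels. Another E protein gene, Tcf12, was above the noise limit, at 2834 to 3250 in experiments 2 and 3 and 3277 to 3866 in experiment 1. A further one, Tcf3, read 1322 to 1826 in experiments 2 and 3, above the limit only on the CIITA-/- array of experiment 3. Id2 read 38096 and 47371 in B6, 39679 and 36214 in CIITA-/- and 41324 and 38793 in IAb-/-, so the B6 arrays lay on both sides of the IAb-/- arrays. Its direction against B6 turned between experiments. CIITA-/- differed from B6 by 21.5% in experiment 1 (50871 against 41871), 4.2% in experiment 2 and -23.6% in experiment 3, and IAb-/- by 30.4%, 8.5% and -18.1%. The B6 array of experiment 3 was the brightest of its design, and the fitted folds against B6 were 0.89 (95% interval 0.65 to 1.22) and 0.94 (0.69 to 1.29).

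Tcf4 read 1091 and 1416 in B6, 1106 and 988 in CIITA-/- and 1158 and 824 in IAb-/-, all under the noise limit of 1701. The other design carries another Tcf4 probe set, which read -8, 372 and 265 in the same order. No direction can be given at these levels. Markers of plasmacytoid DCs, which need Tcf4, were mostly low as well on the design of experiments 2 and 3. Of the 5 listed markers on the array, 0 or 1 were above the noise limit on every array of a group, and Ccr9, their homing receptor, read between -81 and 151. Klk1, another of them, read 2667 and 1773 in B6, 2325 and 1518 in CIITA-/- and 2627 and 1508 in IAb-/-. In experiment 1 Klk1 was well above the noise limit, at 16472, 12716 and 11134, and 1 or 2 of the 5 were above it. Fewer cells of a type and less RNA per cell cannot be told apart in RNA from bulk cells.

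Ikzf1 was also under the noise limit through both of its probe sets. The first read 752 and 472 in B6, 963 and 413 in CIITA-/- and 749 and 491 in IAb-/-. The arrays of experiment 2 were above those of experiment 3 in each group, and the groups overlapped. The other lay below 0 on 4 of 6 arrays, at -522 and -445 in both B6 arrays, and read 1750, 1322 and 1231 in experiment 1. Its log2 difference for CIITA-/- against B6, 1.34 with an SE of 1.27, rests on values set to the floor and is not a size.

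Cebpb had the largest fitted difference over experiments 2 and 3 of any member above the noise limit. It encodes C/EBP beta, a factor of inflammatory myeloid genes, and was higher by value on the arrays labelled IAb-/-. It read 8035 and 8609 in B6, 8237 and 10063 in CIITA-/- and 11905 and 11949 in IAb-/-. Both IAb-/- arrays were above all 4 others, while the CIITA-/- arrays overlapped B6. IAb-/- was above B6 by 48.2% in experiment 2 and 38.8% in experiment 3. In experiment 1 the levels were 15883 in B6, 17258 in CIITA-/- and 16452 in IAb-/-, so the difference of IAb-/- from B6 was 3.6% and CIITA-/- was the highest. The fitted fold was 1.43 (log2 0.52, SE 0.16, 95% interval 1.07 to 1.93), with an unadjusted p of 0.026 and an adjusted p of 1 (limma), rank 238 of 9312 by p. Groups without overlap in that direction were found for 17.1% of the probe sets above the noise limit on all 6 arrays. Over all 9 arrays with the experiment as a block, the log2 difference was 0.36 (limma adjusted p = 0.91).

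The summed level of the neutrophil markers differed between groups as well. It was 9980 to 10104 in B6, 12536 to 12890 in CIITA-/- and 11460 to 12359 in IAb-/- in experiments 2 and 3, and 8633, 12856 and 16348 in experiment 1. Of the 10 markers, 2 or 3 were above the noise limit on every array of a group in experiments 2 and 3, and Ngp and Mmp8 were at or below 0 in each of those groups. In IAb-/- the higher sum of experiments 2 and 3 came from Lcn2. Without Lcn2, left out after its values were seen, the sums there were 8133 and 8276 in B6, 9940 and 9934 in CIITA-/- and 5784 and 6734 in IAb-/-, so that IAb-/- was the lowest group, while in experiment 1 they were 6298, 9939 and 13424. Of the 9 macrophage markers on the array, 3 (Cd14, Csf1r and Cd68) were above the noise limit on every array of experiments 2 and 3. In experiment 1, 4 or 5 were above it. The macrophage markers summed to 14403 to 18322 in B6, 17617 to 18664 in CIITA-/- and 16761 to 20595 in IAb-/- in experiments 2 and 3. In experiment 1 these sums were 63786, 58203 and 54078. The part of neutrophils or macrophages in the Cebpb values was not tested. In CIITA-/- against IAb-/-, Cebpb was at 0.76-fold (log2 -0.39, SE 0.16, 95% interval 0.57 to 1.03, limma adjusted p = 1).

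Stat3 was lower by value in CIITA-/- than in B6 in each experiment and on both of its probe sets, without passing. The brighter read 7326 and 7507 in B6, 6220 and 7462 in CIITA-/- and 7726 and 6756 in IAb-/-. The dimmer read 4229 and 4341 in B6, 3494 and 3921 in CIITA-/- and 3505 and 3878 in IAb-/-. On the brighter one the groups overlapped: the B6 arrays lay within the IAb-/- range, and the CIITA-/- array of experiment 3 was 0.6% from B6. On the dimmer one both B6 arrays were above the other 4. Of the probe sets above the noise limit on all 6 arrays, 18.2% had CIITA-/- below B6 without overlap and 15.1% had IAb-/- below B6.

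The largest single gap for Stat3 was in experiment 1, where the brighter probe set read 11342 in B6, 6998 in CIITA-/- and 11333 in IAb-/-, a difference of -38.3% between CIITA-/- and B6. The dimmer one gave -11.8% there (4485 against 5086), so the probe sets of the gene share the direction and not the size. In IAb-/- they differed, with log2 differences from B6 of -0.04 and -0.22 in the fit and percent differences of -0.1% and 6.4% in experiment 1. The fitted folds of CIITA-/- against B6 were 0.92 (95% interval 0.68 to 1.25, limma adjusted p = 0.94) and 0.86 (0.66 to 1.13, adjusted p = 0.93). Without CIITA-/- replicate 2, the log2 difference of the brighter probe set was 0.009. A lower value in all 3 experiments in this comparison was found for 3 of 8 member probe sets, 2 of them Stat3 and the other Spi1, against 13.2% of all above the noise limit on all 9 arrays. The 2 Stat3 probe sets share a target, so they do not count as separate genes.

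**Figure D2:**
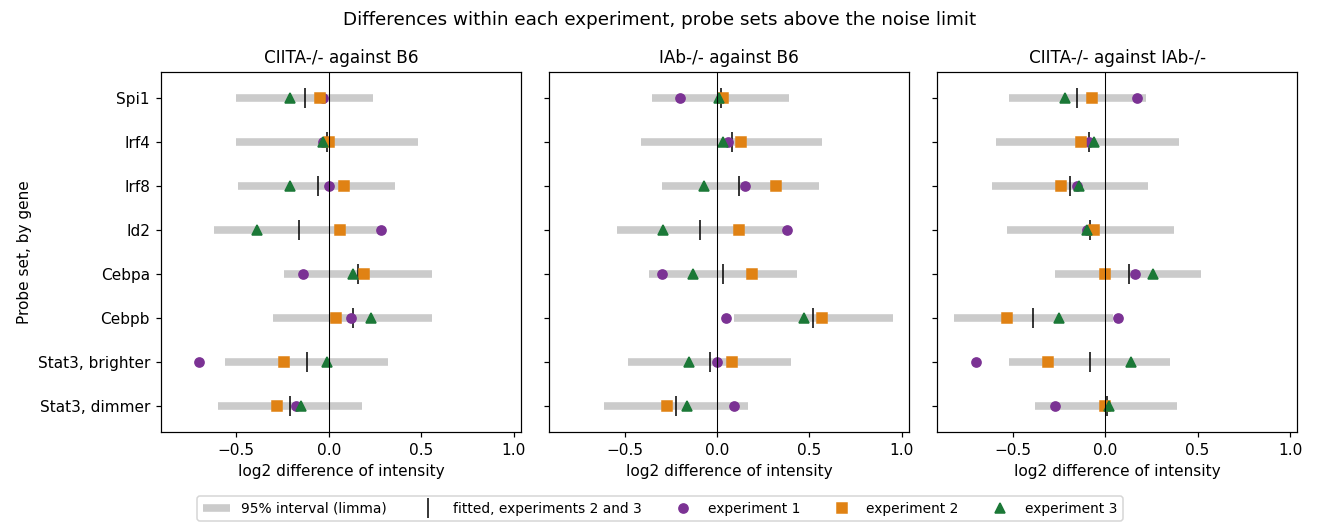
Log2 difference of intensity (x axis) for the 8 member probe sets above the noise limit (y axis) in 3 comparisons. Circles, squares and triangles are experiments 1, 2 and 3, the tick is the limma fit to experiments 2 and 3 and the grey bar its 95% interval. Only the bar of Cebpb in IAb-/- against B6 (0.09 to 0.95) does not cross 0, and experiment 1 lies at 0.05 there.

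The 8 member probe sets above the noise limit were counted beside all such probe sets. In CIITA-/- against B6 the groups of experiments 2 and 3 did not overlap for 1 in the higher direction (Cebpa), against 23.2% of all 3692, and for 2 in the lower (Spi1 and the dimmer Stat3), against 18.2%. In IAb-/- against B6 there were 2 higher (Spi1 and Cebpb), against 17.1%, and 1 lower (the dimmer Stat3), against 15.1%. In CIITA-/- against IAb-/- there were 0 higher, against 11.8%, and 3 lower (Spi1, Cebpb and Irf8), against 11.9%. Over all 3 experiments, the counts not yet given were 1 higher in CIITA-/- against B6 (Cebpb), against 17.6% of the 2876, 0 lower in IAb-/- against B6, against 13.6%, and 0 higher in CIITA-/- against IAb-/-, against 12.1%. With 8 probe sets, of which 2 share a gene, nothing particular to the members was read from these counts.

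Over the 8 bright member probe sets, the median size of the log2 difference was 0.13 in CIITA-/- against B6, 0.08 in IAb-/- against B6 and 0.11 in CIITA-/- against IAb-/-. The same medians over all 3692 probe sets above the noise limit were 0.12, 0.10 and 0.09. The members' differences were therefore of the size usual on these arrays. The range over the 6 arrays was wider than that of 76.8% of those probe sets for Cebpb, and of 20.7% to 49.7% for the other 7.

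The genes whose pattern over the 6 arrays was most like each member's are given as a description, by Pearson correlation of log2 values among 3303 named probe sets above the noise limit (3302 for Stat3). With 6 arrays that share groups and experiments, high values are common: between 11 and 39 probe sets passed 0.9 for each member. They were Ell2 (0.983) and Rbm17 (0.976) for Spi1, and Tubb5 (0.985) and Etv4 (0.979) for Irf4. For Irf8 they were Dnase1l1 (0.985) and Sart3 (0.975), and for Id2 Eif4ebp2 (0.991) and Mtmr1 (0.971). Cebpa was most like Slc39a4 (0.991) and Gltp (0.986), Cebpb like Isca1 (0.986) and Emp3 (0.974), and Stat3 like Art5 (0.987) and Cct6a (0.973).

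Other DC and myeloid transcription factors had no call either. Of 45 listed, 37 were on the array and 32 tested, and 15 were under the noise limit on all 6 arrays. None were called in any comparison (limma), 1, 2 and 1 had an unadjusted p under 0.05, and the medians of log2 differences were -0.01, 0.03 and 0.03 against 0.01, 0 and 0 over all probe sets.

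Irf1, an interferon-induced activator, read 5299 and 5483 in B6, 3211 and 4729 in CIITA-/- and 3565 and 2944 in IAb-/-. Both B6 arrays were above the other 4 (log2 -0.47 and -0.73, limma adjusted p = 0.93 and 1), but in experiment 1 CIITA-/- was above B6 (6585 against 4640) and IAb-/- below it (4027). Klf4, a factor of monocytes and some DCs, was at 2898 ± 225 (SD, n = 2) in B6, 4050 ± 276 in CIITA-/- and 3964 ± 513 in IAb-/-, and went the other way in experiment 1 (log2 -0.09 and -0.70). Zbtb46, which marks conventional DCs, was at 2751 ± 38 in B6 and 2241 ± 10 in CIITA-/-, and at 1167 and 2282 in IAb-/-, where the arrays straddled the noise limit. It was not read in experiment 1. Prdm1, a repressor of lymphocyte and myeloid genes, had a log2 difference of -0.35 in CIITA-/- against B6, with both CIITA-/- arrays under the noise limit, at 1587 and 1377. In experiment 1 its log2 difference was 0.03, with both values under the noise limit (1888 against 1855). Between CIITA-/- and IAb-/-, Stat6, the IL-4 signal carrier, had a log2 difference of -0.18 (0.01 in experiment 1) and Ets2 one of -0.55 (-0.06 in experiment 1), with 1 CIITA-/- array of Ets2 under the noise limit.

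Among 10 transcription factors of other lineages, 6 were on the array and 4 of these were under the noise limit throughout. The 2 above it on all 6 arrays were Pax5, of B cells, and Klf1, of red cells. Pax5 was at 2856 ± 3 (SD, n = 2) in B6, 3361 ± 150 in CIITA-/- and 3223 ± 285 in IAb-/-. In experiment 1 it was highest in B6, at 3592, against 3018 and 3239. Klf1 was at 7198 ± 1586, 8752 ± 0 and 8157 ± 663, and at 5674, 7752 and 8670 in experiment 1. None of this list were called in any comparison (limma), with 1, 0 and 1 at an unadjusted p under 0.05. Both were Gata2, which was under the noise limit, at 192 and -96 in CIITA-/-, 394 and 260 in B6 and 378 and 430 in IAb-/-. In experiment 1 its order turned, with 628 in CIITA-/-, -390 in B6 and -573 in IAb-/-, and no direction was read. T cell markers summed to at most 1697 over 7 genes in experiments 2 and 3, and Cd3e, their signalling chain, was below 0 on all 9 arrays. Of the B cell markers 1 or 2 of 6 were above the limit in each group, Pax5 among them, and of the red cell markers 1 of 5, Klf1 itself.

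Receptors and kinases upstream of the members had none as well. Of 18 listed, 17 were on the array, 16 were tested and 12 were above the noise limit on all 6 arrays. The medians were 0.04, 0.05 and -0.02, and 0, 0 and 0 had an unadjusted p under 0.05 (limma). Csf2rb, the common beta chain of the GM-CSF receptor, read 18756 and 17497 in B6, 14764 and 21292 in CIITA-/- and 24509 and 23258 in IAb-/-. Its IAb-/- arrays were above all others, and experiment 1 had the same direction against B6 (37613 against 34774; fitted log2 0.40, adjusted p = 1). Csf2rb2, its near copy that serves the IL-3 receptor, had a log2 difference of 0.25 in the fit and 0.15 in experiment 1. The 2 genes are near-identical in sequence, so their probe sets may share signal. Csf2ra, the alpha chain, had log2 differences of 0.29 and 0.18 from B6, and -0.11 and -0.24 in experiment 1. Csf1r, the macrophage growth factor receptor, and Il10ra had 0.24 and 0.28 in CIITA-/- against B6, but -0.04 and -0.42 in experiment 1. The B6 arrays of Il10ra, at 1492 and 1377, were under the noise limit, as was its CIITA-/- array of experiment 1 (2113). Il6ra had 0.61 in CIITA-/- against IAb-/-, but the groups overlapped, at 1782 and 1767 against 683 and 1966. The IAb-/- array at 683 was under the noise limit. The log2 difference of Il6ra in experiment 1 was 0.66, where both values were under the noise limit.

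Most genes known as targets of the members were higher in CIITA-/- and IAb-/- than in B6 over experiments 2 and 3. These were differences by value, without a call. The list was chosen with earlier results of these data known, so its direction is not independent evidence. Of 23 listed, 21 were on the array and 19 were tested. The median log2 difference was 0.29 in CIITA-/- against B6 and 0.31 in IAb-/- against B6, against 0.01 and 0 over all probe sets, and 16 of 19 were positive in each, where 52.0% and 51.0% of all probe sets were. Both comparisons use the same B6 arrays. Over the 14 genes above the noise limit in a compared group, the medians were 0.22 and 0.28. For CIITA-/- against B6 the single experiments gave 14 of 19 positive in experiment 2 (median 0.18), 15 of 19 in experiment 3 (0.26) and 15 of 17 in experiment 1 (0.14). For IAb-/- against B6 they gave 15 of 19 in experiment 2 (0.33), but 11 of 19 in experiment 3 (0.16) and 10 of 17 in experiment 1 (0.30). Over all probe sets, 4789 and 4582 of 9312 were positive in experiments 2 and 3 for CIITA-/-, and 3565 of 7610 in experiment 1. For IAb-/- these were 4640, 4418 and 3706. The target counts include genes under the noise limit, such as Il10 in experiment 1 (431 in CIITA-/- against 29 in B6). None of the targets were called (limma), and 3 and 5 had an unadjusted p under 0.05. In CIITA-/- against IAb-/- the median was -0.06.

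Itgam, the integrin chain CD11b that PU.1 is known to drive, read 1341 and 1406 in B6, under the noise limit, 2124 and 3447 in CIITA-/- and 3508 and 2680 in IAb-/-. In experiment 1 it read 4222, 4751 and 3019, so IAb-/- was the lowest there. Lcn2, an iron-binding protein of neutrophils that C/EBP factors are known to drive, read 1970 and 1704 in B6, 2595 and 2955 in CIITA-/- and 6575 and 4726 in IAb-/-. The groups did not overlap (log2 1.61 for IAb-/- against B6, SE 0.22, limma adjusted p = 0.41). Another Lcn2 probe set in experiment 1 read 2335, 2918 and 2923.

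Csf3r, the G-CSF receptor, read 3879 and 3753 in B6, 4392 and 4982 in CIITA-/- and 2291 and 2394 in IAb-/-, so it was lowest where Lcn2 was highest. In experiment 1 it was highest in IAb-/- (5603 against 1822 in B6). Fcgr1, a high-affinity antibody receptor, had a log2 difference of 0.58 in CIITA-/- against B6 (0.12 in experiment 1). Pim1, a kinase gene induced through STAT proteins, had a log2 difference of -0.39 in CIITA-/- against IAb-/- (-0.37 in experiment 1). It read 16639 and 15476 in B6, 16950 and 18548 in CIITA-/- and 24271 and 22218 in IAb-/-. In experiment 1 it read 19833, 21636 and 27981, so IAb-/- was the highest group each time. Lcn2 and Csf3r are also on the neutrophil marker list given above, and the part of other cells in these values was not tested.

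**Figure D3:**
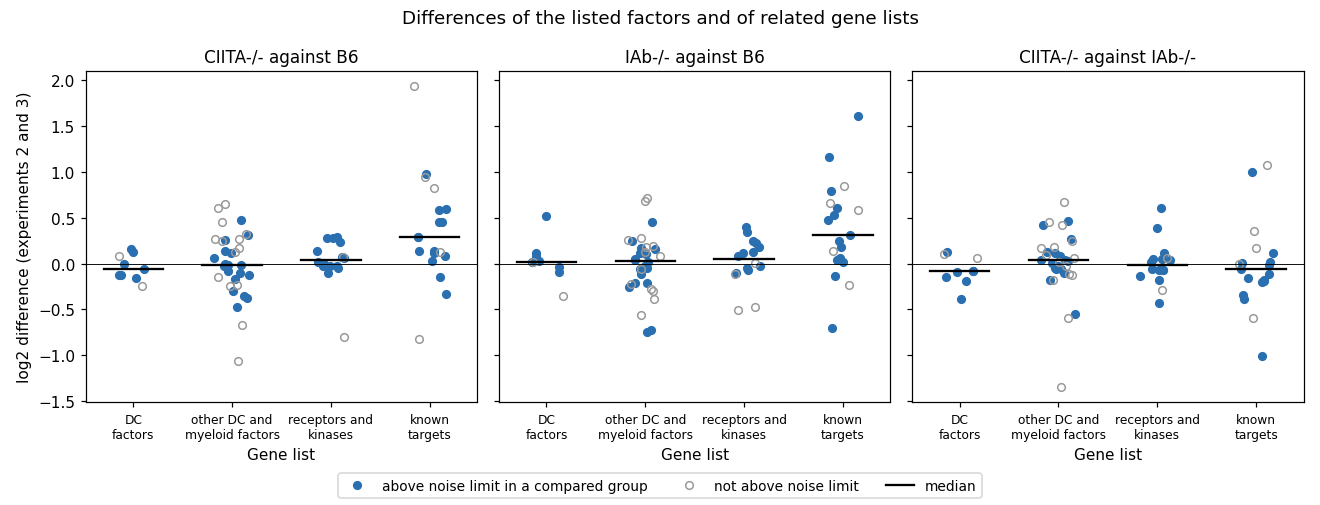
Log2 difference over experiments 2 and 3 (y axis) of each tested gene in 4 lists (x axis) and 3 comparisons; filled points are above the noise limit on all arrays of a compared group, open points are not, and bars are medians. The medians of the members are -0.06, 0.02 and -0.08, and those of the known targets 0.29, 0.31 and -0.06.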

How the data were processed

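The authors deposited a linear intensity for each probe set of each array; how it was computed from the scan was not given in the sources used here. Their number, not a depth, limits precision. Symbols come from the platform annotation (1 symbol for 10833 and 10276 probe sets); probe sets with several were left unnamed. In the table of experiments 2 and 3, values under the 30th percentile (123.5; 93.2 in experiment 1) were set to it and log2 was taken. Those that exceeded it on 2 or more arrays entered limma 3.58.1 (lmFit, eBayes, R 4.3.3) in one model over 3 groups, checked on simulated data. The floor understates changes of dim probe sets. Experiment 1, on another design, was given as values. Lists are read from the brightest probe set of each gene; members and lists were chosen with earlier results of these data known. Genes of other lists were named by rule: those called, and up to 3 per comparison with the smallest p above the noise limit. Experiment numbers in the titles pair the arrays (the number of 1 array by elimination); deviations of same-numbered arrays from their group means correlated at 0.219 to 0.306 over 3692 probe sets. Alternatives: floor, filter, scaling, asinh scale, fewer groups, replicate block, 9 arrays, and each array left out.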

Additional observations from a re-analysis of the deposited data

How the results depend on the processing

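No member probe set was called under any of the 14 alternatives in any comparison; the lowest adjusted p (limma) was 0.586, for Cebpb in IAb-/- against B6 without IAb-/- replicate 3. Cebpb kept its direction there, from 0.36 to 0.57 on the log2 scale. The counts over all probe sets, 9, 1 and 2 in CIITA-/- against B6, IAb-/- against B6 and CIITA-/- against IAb-/-, became 3, 0 and 4 with the floor at the noise limit, 14, 5 and 7 with no filter on low values, and 1, 0 and 0 with only the groups compared. With the replicate block they were 0, 0 and 0, and over 9 arrays with the block 4 and 0 in the first 2. The asinh scale gave 5 and 0 in the first 2, and quantile normalization 3 in the second. Leaving out each array in turn gave 0 to 1 in the first, 0 to 0 in the second and 0 to 1 in the third; a group left with 1 array is assumed to vary like the others. The block changed no call of a member.

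Signs of small differences turned. In IAb-/- against B6, with the block over 9 arrays, the log2 difference became -0.08 for Cebpa, 0.071 for Id2, -0.262 for Ikzf1 and -0.054 for Spi1; with median scaling it became -0.002 for Ikzf1 and -0.009 for Spi1. In experiment 1, which enters only the fit over 9 arrays, the log2 differences of IAb-/- from B6 were -0.30 for Cebpa, 0.38 for Id2, -0.84 for Ikzf1 and -0.20 for Spi1. The median over all probe sets in this comparison was 0.005 in the main fit and -0.019 with median scaling. The cause of the turns was not tested. Leaving out 1 array turned the sign of others, with log2 ranges over the 6 arrays left out (the brighter probe set of Stat3 and of Ikzf1). In CIITA-/- against B6 these were -0.014 to 0.28 for Cebpb, -0.53 to 0.69 for Ikzf1, -0.12 to 0.10 for Irf4, -0.20 to 0.067 for Irf8 and -0.25 to 0.009 for Stat3. In IAb-/- against B6 these were -0.072 to 0.13 for Cebpa, -0.24 to 0.072 for Id2, -0.31 to 0.36 for Ikzf1, -0.066 to 0.23 for Irf4, -0.007 to 0.26 for Irf8 and -0.13 to 0.059 for Stat3. In CIITA-/- against IAb-/- these were -0.55 to 0.67 for Ikzf1, -0.24 to 0.053 for Irf4, -0.22 to 0.047 for Stat3 and -0.15 to 0.34 for Tcf4.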
